A study of Mus musculus with 16 samples.

Results

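Whether prior growth in Th2 cytokines altered the microRNA response of macrophage-like cells to interleukin-33 (IL-33) was examined across all mouse microRNAs (miRNAs, small regulators that silence messenger RNAs) on the array. The quantity tested was the interaction, the IL-33 difference of Th2-grown cells minus the IL-33 difference of medium-grown cells, on the log2 scale. A positive value is a larger rise, or smaller fall, with IL-33 after Th2 growth. The array held 1247 mouse miRNAs, of which 231 were tested because some group detected them on each of its 4 arrays, and 178 were detected on all 16 arrays. All 16 arrays of the series entered the comparison.

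RNA came from RAW264.7, an established mouse macrophage-like line, so every group shares 1 cell line. Media cells were kept in complete medium for 48 h and received no stimulus. Th2 cells had interleukin-4 (IL-4) and interleukin-13 (IL-13) at 10 ng per ml during that time, with no statement in the labels of whether this was the dose of each or of both together. The separate effects of the 2 cytokines cannot be told apart. The groups Media + IL-33 and Th2 + IL-33 were grown in the same ways, washed, and given recombinant murine IL-33 at 20 ng per ml for 4 h. An incubation of 4 h is given for the Media and Th2 groups as well, without IL-33. The labels do not state whether IL-4 and IL-13 were added back after the wash, so an interaction with earlier growth and one with cytokines still present cannot be told apart. Each group held 4 arrays, 1 from each of 4 independent experiments, which are numbered 1 to 4 (Media 1 is the Media array of experiment 1). In total RNA of a culture, a change in all cells and a change in a fraction of them cannot be told apart.

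IL-33 is an alarmin released by damaged epithelium. It binds the receptor ST2, which signals through the adaptor MyD88 to the transcription factor NF-kB, as Toll-like receptors do. IL-4 and IL-13 act through STAT6 and drive macrophages towards the alternatively activated state seen in allergic tissue. The miRNAs miR-155, miR-146a, miR-146b and miR-21 are well known targets of inflammatory signalling in macrophages: miR-155 represses inhibitors of cytokine signalling such as Socs1, whereas the miR-146 family represses the adaptors Irak1 and Traf6 and so acts as negative feedback.

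The mature sequences on which the comparison turns are shown 5′ to 3′ with the seed, bases 2 to 8, in capitals. They are RefSeq sequences on build GRCm38.p6. The first 4 are miRNAs raised by IL-33, and the others are from the set with the largest interaction estimates.
miR-155-5p: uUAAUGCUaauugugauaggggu
miR-146a-5p: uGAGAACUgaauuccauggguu
miR-146b-5p: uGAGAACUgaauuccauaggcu
miR-21a-3p: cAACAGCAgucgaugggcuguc
miR-3063-3p: uGAGGAAUccugaucucucgcc
miR-302c-3p: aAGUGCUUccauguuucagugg
miR-155-5p lies at chr16:84714143-84714165 on the plus strand within Mir155hg, its noncoding host gene. miR-146a-5p lies at chr11:43374435-43374456 on the minus strand, and miR-146b-5p at chr19:46342790-46342811 on the plus strand within Gm36493. These 2 share the seed GAGAACU, which no other tested miRNA with a RefSeq sequence carried. miR-21a-3p lies at chr11:86584082-86584103 on the minus strand within the span of Vmp1, miR-3063-3p at chr11:95963304-95963325 on the minus strand within the span of Igf2bp1, and miR-302c-3p at chr3:127545406-127545427 on the plus strand within the span of Larp7. A RefSeq mature sequence was matched for 170 of the 231 tested miRNAs.

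Values are relative signals, the background-subtracted intensity of a miRNA divided by the 75th percentile of its array, with a floor of 0.0353 below which signals have no order. Detected means called so by the scanner software, and well above background means that at least 50% of the spots of a probe carried its flag for that. Between 206 and 256 miRNAs were detected per array, and the median correlation of an array with its own group ran from 0.874 to 0.991. The macrophage miRNA miR-223-3p was detected on 16 arrays, and 13 of 14 marker miRNAs of other cell types were detected on none. The exception was the muscle miRNA miR-206-3p, detected on 11 arrays. Its signal before the floor was 0.0323 to 0.0795 over all 16 arrays. The arrays lay on 2 slides: slide 1 held 3 Media, 3 Th2, 2 Media + IL-33 and 0 Th2 + IL-33 arrays, and slide 2 held 1, 1, 2 and 4. The interaction therefore has no value within slide 1. The arrays Media 1, Media 3 and Th2 + IL-33 2 stood apart from their groups in some miRNAs. Their median correlations with their own groups were 0.920, 0.874 and 0.945. Media 2 also had 0.920, with the fewest detected miRNAs (206) and the most outlier spots (3929), and was kept. The 3 arrays were picked from these same data, so values without them describe and do not test. Results that rest on them are given with and without them.

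No miRNA passed the interaction test. Of 231 tested, 0 (0%) had an adjusted p under 0.05 in limma with Benjamini-Hochberg adjustment, and 5 (2.16%) had an unadjusted p under 0.05. The median interaction was 0.02, the middle 50% lay between −0.07 and 0.09, and 127 estimates were positive against 104 negative. For 218 miRNAs the estimate was smaller than 1.5-fold in either direction, and for 6 it was past 2-fold. The same sign in 4 of 4 experiments was seen for 10 miRNAs (4.33%), 5 positive and 5 negative.

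The width of the intervals differed with brightness. The median standard error was 0.25, giving a median half-width of 0.54 for the 95% interval. The whole interval lay inside a 2-fold difference in either direction for 187 of 231 miRNAs (81%), and inside 1.5-fold for 96. Among the 142 miRNAs well above background on all arrays, the estimates ran from −0.47 (miR-574-3p) to 0.25 (miR-652-5p), 128 intervals (90.1%) lay inside 2-fold, and 0 had an unadjusted p under 0.05. Among the 89 that were not well above background on some array, 59 (66.3%) lay inside 2-fold, and these 89 held all 5 of the unadjusted p under 0.05. For the other miRNAs the interval reached past 2-fold, so a difference of that size was not excluded at this number of arrays. Without Media 1, Media 3 and Th2 + IL-33 2, 205 of the 231 intervals (88.7%) and 140 of the 142 (98.6%) lay inside 2-fold, and the estimates of the 142 ran from −0.38 to 0.46. miR-574-3p, which stood at 0.406 on Media 1, 2.56 on Media 3 and 0.392 on Th2 + IL-33 2, then had an interaction of −0.08.

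**Figure D1:**
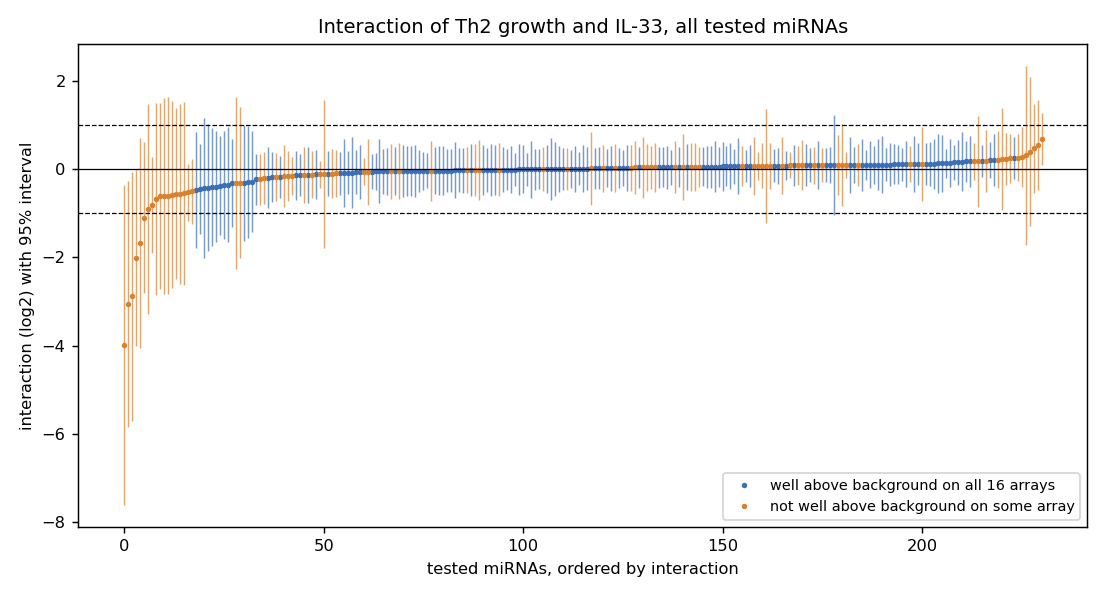
Interaction estimates (points, log2) with 95% intervals (bars) for the 231 tested miRNAs, ordered by estimate; dashed lines mark 2-fold, blue marks the 142 miRNAs well above background on all arrays and orange the 89 others. Most points lie near 0, and all 6 estimates past 2-fold are orange and negative.

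The response to IL-33 itself involved few miRNAs. Averaged over both growth conditions, 5 of 231 miRNAs (2.16%) rose and 0 (0%) fell at an adjusted p under 0.05 in limma: miR-155-5p, miR-21a-3p, miR-146a-5p, miR-222-5p and miR-146b-5p. In this balanced design the average and the interaction are orthogonal contrasts. The IL-33 difference of each of the 5 was positive in both growth conditions. The interaction was positive for miR-155-5p and miR-222-5p and negative for the other 3, with 2 of the 5 intervals inside 2-fold.

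**Figure D2:**
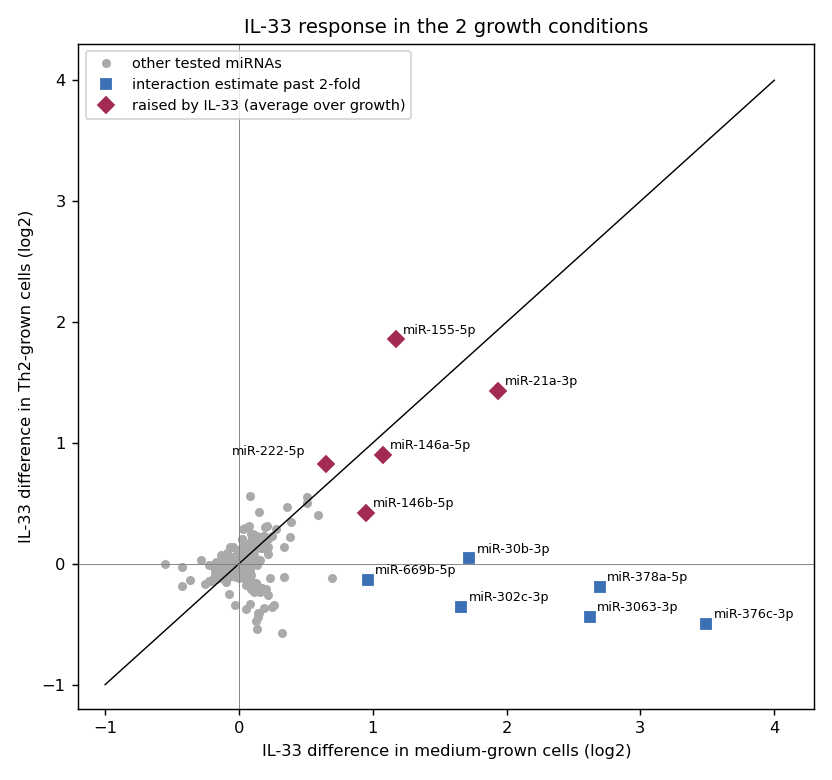
IL-33 difference (log2) in medium-grown cells on the horizontal axis against that in Th2-grown cells on the vertical axis for 231 miRNAs; the diagonal marks equal responses. Red diamonds are the 5 miRNAs raised by IL-33, on both sides of the diagonal, and blue squares are the 6 interaction estimates past 2-fold, all below it.

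miR-155-5p, processed from the NF-kB target Mir155hg, had the smallest interaction p. Its relative signal in experiments 1 to 4 was 0.0353, 0.0364, 0.0353 and 0.0581 on the Media arrays and 0.0798, 0.0850, 0.0952 and 0.105 on the Media + IL-33 arrays. In Th2-grown cells it was 0.0353, 0.0375, 0.0397 and 0.0545 without IL-33 and 0.187, 0.156, 0.116 and 0.146 with it. The unstimulated groups overlapped and lay at or near the floor, whereas every Th2 + IL-33 array was above every Media + IL-33 array.

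The mean was 0.0913 ± 0.0112 (SD, n = 4) in Media + IL-33 and 0.151 ± 0.0292 (SD, n = 4) in Th2 + IL-33. The IL-33 difference was 1.17 ± 0.19 (SE) in medium and 1.86 ± 0.19 (SE) after Th2 growth, on the log2 scale. If both treatments had only added on that scale, Th2 + IL-33 would have stood at 0.0926; its geometric mean was 0.149. The interaction was 0.69 ± 0.27 (SE), a 1.61-fold larger response with a 95% interval of 1.07 to 2.42, with an unadjusted p of 0.0246 and an adjusted p of 0.995 in limma. It did not pass the test over all miRNAs. Within experiments it was 1.23, 0.84, 0.11 and 0.57, positive in 4 of 4, for which an exact two-sided sign-flip test cannot go below p = 0.125.

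The unstimulated level of miR-155-5p set a limit on this value. It was well above background on 1 of 4 Media arrays and on 0 of 4 Th2 arrays, against 4 of 4 in each stimulated group. Each dim array was then set to its own lowest signal that passed the background flag. The response in Th2-grown cells was at least 2.79-fold (3.63-fold as measured), and that in medium was 1.59-fold (2.25-fold as measured). The interaction with these settings was 0.81, which is not a bound. All 4 Th2 arrays and all but 1 Media array stood at their own array's limit, so the unstimulated side holds almost no measured level. The array carried 2 probes for miR-155-5p, which end 1 base apart and read as follows.
probe 1: acccctatcacaattag
probe 2: acccctatcacaattagc
Probe 1, of 17 bases, was well above background on 0 arrays, and probe 2, of 18 bases, on 9. The interaction was 0.35 from probe 1 and 0.57 from probe 2, so the value rests mainly on 1 probe.

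The interaction of miR-155-5p changed little with slide as a term and was smaller among the arrays of slide 2 alone. With slide as a fixed term it was 0.70 (limma, unadjusted p = 0.0343), and on slide 2 only it was 0.23 (limma, unadjusted p = 0.569). Slide 2 holds 1 Media array, Media 1, which stood apart in other miRNAs, and 1 Th2 array, so every slide 2 value here has no spread of its own in the unstimulated groups, and the lone arrays are assumed to vary like the other groups. Leaving out single arrays gave 0.51 to 0.82. Normexp background correction gave 0.29 (limma, unadjusted p = 0.00748, adjusted p = 0.730). That setting adds an offset of 50 intensity units to each spot, which shrinks log2 differences of dim signals. The median width of the intervals over all tested miRNAs was 0.51 with it, against 1.09 in the main fit. Without Media 1, Media 3 and Th2 + IL-33 2 the interaction of miR-155-5p was 0.86. When arrays were weighted by their fit (limma's array weights) it was 1.25 with an adjusted p of 0.0158. In the other 32 settings its adjusted p lay between 0.235 and 1. The weights came from these same data and lay mostly on single arrays. Media 4 had 1.94, against 0.420, 0.573 and 0.0846 for Media 1, 2 and 3. Th2 + IL-33 1 had 2.84, against 0.365, 0.506 and 1.27 for Th2 + IL-33 2, 3 and 4. Media 4 and Th2 + IL-33 1 had the highest miR-155-5p signal of their groups.

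**Figure D3:**
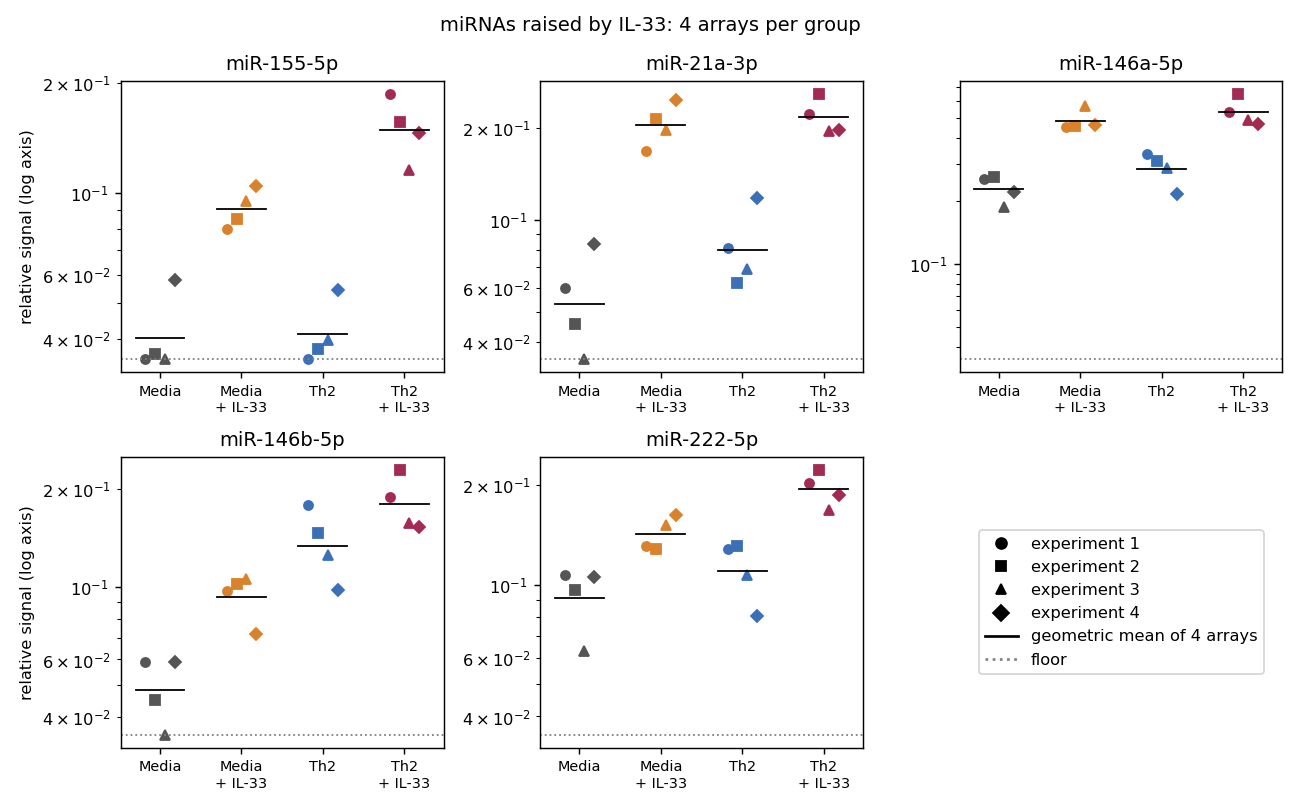
Relative signal (log axis) of the 5 miRNAs raised by IL-33 on each array; marker shapes are experiments 1 to 4, bars are geometric means of 4 arrays, and the dotted line is the floor of 0.0353. For miR-155-5p the Th2 + IL-33 arrays (0.116 to 0.187) all lie above the Media + IL-33 arrays (0.0798 to 0.105).

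Both members of the miR-146 family, which share a seed, rose with IL-33 averaged over growth conditions. miR-146a-5p stood at 0.254, 0.261, 0.188 and 0.220 on the Media arrays and 0.452, 0.454, 0.569 and 0.461 on the Media + IL-33 arrays. In Th2-grown cells it stood at 0.335, 0.309, 0.287 and 0.216 without IL-33 and 0.531, 0.646, 0.488 and 0.468 with it. Stimulated and unstimulated arrays did not overlap in either growth condition, and the stimulated groups overlapped each other.

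The IL-33 difference of miR-146a-5p was 1.08 ± 0.16 (SE) in medium and 0.90 ± 0.16 (SE) after Th2 growth. Its interaction was −0.17 ± 0.22 (SE), a 0.886-fold ratio of responses with a 95% interval of 0.635 to 1.24 (limma, unadjusted p = 0.451). The test found no difference between growth conditions, and the interval leaves room for a response up to 1.24 times as large after Th2 growth or as small as 0.635 times. On slide 2 only the estimate was 0.45, the opposite sign. Leaving out single arrays gave −0.30, without Th2 4, to −0.08, without Media 3.

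miR-146b-5p differed from its family member in its baseline, which Th2 growth raised. It stood at 0.0588, 0.0450, 0.0353 and 0.0591 on the Media arrays, 0.0972, 0.102, 0.106 and 0.0720 on Media + IL-33, 0.179, 0.147, 0.126 and 0.0978 on Th2, and 0.190, 0.229, 0.158 and 0.153 on Th2 + IL-33. The medium groups did not overlap, whereas the Th2 and Th2 + IL-33 arrays did. The Th2 groups lay above the matching medium groups with and without IL-33.

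The Th2 growth difference of miR-146b-5p, averaged over stimulation, was 1.21 (limma, adjusted p = 2.5e-05). The IL-33 difference was 0.95 ± 0.22 (SE) in medium and 0.42 ± 0.22 (SE) after Th2 growth. The interaction was −0.52 ± 0.31 (SE), a 0.696-fold ratio with a 95% interval of 0.443 to 1.09 (limma, unadjusted p = 0.107, adjusted p = 0.995). Within experiments it was −0.65, −0.54, −1.27 and 0.36. The interaction was 0.12 on slide 2 only and 0.06 with normexp background correction, which carries the offset of 50. With dim arrays raised to their array's background limit it was −0.27, as only 2 of 4 Media arrays were well above background. On the linear scale, where the response is an increment and not a ratio, the interaction was −0.000594 relative signal (limma, unadjusted p = 0.982).

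miR-21a-3p, the passenger strand of the miR-21 hairpin, had an average IL-33 difference of 1.68. It stood at 0.0602, 0.0460, 0.0353 and 0.0832 on the Media arrays and 0.168, 0.213, 0.196 and 0.246 on Media + IL-33. It stood at 0.0811, 0.0622, 0.0693 and 0.118 on Th2 and 0.222, 0.257, 0.195 and 0.197 on Th2 + IL-33. The stimulated groups overlapped, as did the unstimulated groups, and no stimulated array overlapped the unstimulated arrays of its growth condition.

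The IL-33 difference of miR-21a-3p was 1.93 ± 0.24 (SE) in medium and 1.43 ± 0.24 (SE) after Th2 growth, and the interaction was −0.50 ± 0.35 (SE), a 0.706-fold ratio with a 95% interval of 0.424 to 1.18 (limma, unadjusted p = 0.167). It was negative in 4 of 4 experiments, at −0.03, −0.17, −0.98 and −0.82. Of its 4 probes, probe 1 was at the floor on all 16 arrays, and probe 2 on 8, with an interaction of −0.15. Probes 3 and 4 gave −0.72 and −0.48. With normexp background correction and its offset of 50 the interaction was 0.05, and on slide 2 only −0.78. Only 2 Media and 1 Th2 array were well above background, and with dim arrays raised to their array's background limit the interaction was −0.26. Leaving out single arrays gave −0.72, without Media 4, to −0.30, without Media 3. The abundant guide strand of the same hairpin, miR-21a-5p, had an IL-33 difference of 0.59 in medium and 0.40 after Th2 growth, with an interaction of −0.19 ± 0.32 (SE), and did not pass the IL-33 test (limma, adjusted p = 0.231).

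miR-222-5p comes from the hairpin whose main product, miR-222-3p, represses the cell-cycle inhibitor p27 and the receptor Kit. It stood at 0.107, 0.0967, 0.0631 and 0.106 on the Media arrays, 0.131, 0.128, 0.152 and 0.163 on Media + IL-33, 0.129, 0.131, 0.107 and 0.0803 on Th2, and 0.203, 0.223, 0.169 and 0.188 on Th2 + IL-33. Every Th2 + IL-33 array was above every Media + IL-33 array, and the unstimulated groups overlapped.

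The IL-33 difference of miR-222-5p was 0.65 ± 0.19 (SE) in medium and 0.82 ± 0.19 (SE) after Th2 growth. The interaction was 0.18 ± 0.27 (SE), a 1.13-fold ratio with a 95% interval of 0.761 to 1.68 (limma, unadjusted p = 0.518). On slide 2 only, with Media 1 and Th2 4 as the lone unstimulated arrays, it was 1.00 (limma, adjusted p = 0.286), against adjusted p between 0.458 and 1 in the other 33 settings. Leaving out single arrays gave 0.03, without Th2 4, to 0.35, without Media 3. The median of all tested miRNAs also moved on that slide, from 0.02 to 0.28. miR-221-3p and miR-222-3p had interactions of 0.11 ± 0.27 (SE) and 0.16 ± 0.24 (SE).

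The 4 experiments did not give the same picture. The median interaction over the 231 miRNAs was 0.27 in experiment 1, 0.06 in experiment 2, −0.55 in experiment 3 and 0.18 in experiment 4, so experiment 3 lay below the others. Estimates below −1 numbered 27, 29, 26 and 2, and those above 1 numbered 1, 0, 31 and 1. Experiment 4, which holds none of the 3 arrays that stood apart, had the fewest estimates past either bound. Of the 31 above 1 in experiment 3, Media 3 was the highest of the 16 arrays for 30. The 31 included members of miR-466, miR-467 and miR-669, a family best known from a large cluster within Sfmbt2. Other members were not above 1, such as miR-466h-5p at 0.37 and miR-669k-5p at 0.19. miR-467e-3p, at 2.95 there, was at −2.57, −1.99 and −0.80 in experiments 1, 2 and 4. The IL-33 difference of the 31 in experiment 3 had a median of −1.64 in medium (−2.92 to −0.44) and 0.24 after Th2 growth (0 to 1.00). Without the 3 arrays their interactions over all experiments ran from −0.43 to 0.28. Over all tested miRNAs in experiment 3 the median IL-33 difference was 0.44 in medium and −0.05 after Th2 growth. Against its experiment's median, miR-155-5p was higher in each of the 4 experiments, and miR-21a-3p lower.

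**Figure D4:**
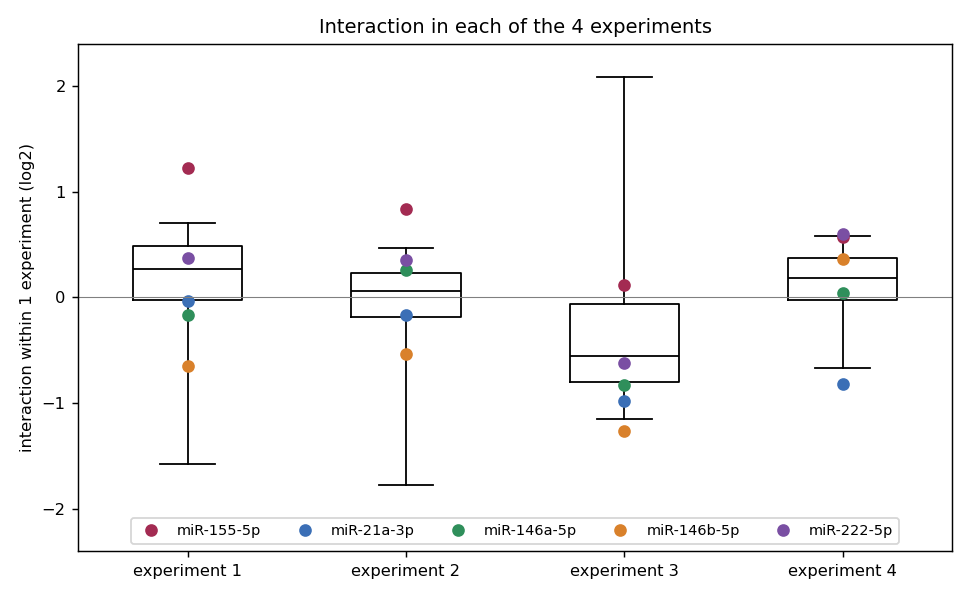
Interaction (log2) within each of the 4 experiments; boxes span the middle 50% of 231 miRNAs with the median line, whiskers reach the 5th and 95th percentiles, and coloured points are the 5 miRNAs raised by IL-33. The box of experiment 3 sits lowest (median −0.55), and miR-155-5p is above the median in every experiment.

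Th2 growth changed many more miRNAs than IL-33, and the median interaction of these was close to 0, as it was over all tested miRNAs. Averaged over stimulation, 46 of 231 (19.9%) passed in limma, 37 higher (16%) and 9 lower (3.9%). The split depends on the scaling: it was 20 and 19 with quantile normalization, 20 and 12 with the 75th percentile of all miRNAs, 19 and 18 in the authors' deposited table, and 33 and 21 with median centring. With the experiment as a replicate block it was 45 and 18. The median Th2 difference over all miRNAs was 0.10, and −0.03 in the authors' deposited table. The 46 had a median interaction of 0.003 and a range of −0.52 to 0.21, against a median of 0.02 over all tested. Inside 2-fold lay 44 of the 46 intervals, against 81% over all tested. The exceptions were miR-146b-5p and miR-96-5p. Inside 1.5-fold lay 22 of the 46 intervals, against 96 of 231 over all tested, so smaller differences were not excluded for many.

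miR-511-3p, whose host gene is the mannose receptor Mrc1, was at the floor on all 8 arrays of medium-grown cells. It stood at 0.235, 0.229, 0.220 and 0.251 on Th2 and 0.240, 0.251, 0.216 and 0.289 on Th2 + IL-33. The Th2-grown groups overlapped, with an IL-33 difference of 0.09 ± 0.10 (SE). Its interaction of 0.09 rests on the Th2 side alone, since medium-grown cells gave no level.

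The miRNA groups that follow were chosen with earlier results of these data known, so the shares called in them do not test enrichment. The group of miRNAs linked to alternative activation had 8 of 12 members tested, and 7 of the 8 rose with Th2 growth, against 16% of all tested. Among them miR-378a-3p, hosted by Ppargc1b, had an interaction of 0.12 ± 0.23 (SE), miR-378d 0.08 ± 0.24 (SE) and miR-223-3p, a regulator of myeloid differentiation, −0.05 ± 0.34 (SE). Their median interaction was 0.02, and 7 of 8 intervals lay inside 2-fold, against 81% over all. The exception was miR-378a-5p, described with the largest estimates. The cluster in introns of Clcn5 had 6 tested members, 5 of which rose with Th2 growth, against the same 16%. Their interactions ran from −0.14 (miR-500-3p) to 0.10 (miR-362-5p), all 6 inside 2-fold (81% over all), with miR-362-3p at 0.03 ± 0.25 (SE) and miR-532-5p at −0.13 ± 0.25 (SE).

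The miR-183 cluster, 3 tested members of which fell with Th2 growth against 3.9% of all tested, had interactions from −0.14 (miR-183-5p) to 0.10 (miR-96-5p). On the Th2 arrays miR-182-5p and miR-183-5p were each at the floor on 3 of 4, and on the Th2 + IL-33 arrays on 3 and 4, so these members had almost no measured level after Th2 growth. No member of any of the 12 groups passed the interaction test. The 3 tested myeloid miRNAs lay between −0.05 (miR-223-3p) and 0.11 (miR-142a-3p). Of the 11 tested members of the miR-17-92 group and its paralogs, which promote proliferation, the interactions ran from −0.02 (miR-17-5p) to 0.21 (miR-92a-3p). The 9 let-7 family members, whose targets include Lin28 and Ras, ran from −0.05 (miR-98-5p) to 0.18 (let-7i-5p).

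Among the 7 members of the miR-99, miR-100, let-7 and miR-125 group, interactions ran from −0.12 (miR-100-5p) to 0.05 (miR-99a-5p). The 5 of the miR-23, miR-27 and miR-24 group ran from −0.06 (miR-27b-3p) to −0.02 (miR-24-3p). The 3 miR-29 members, which repress collagens, ran from 0.003 (miR-29a-3p) to 0.21 (miR-29b-3p), and the 5 miR-30 members from −0.003 (miR-30b-5p) to 0.11 (miR-30a-5p). Every interval of the myeloid, miR-17-92, let-7, miR-99, miR-23, miR-29 and miR-30 groups lay inside 2-fold, against 81% over all.

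The inflammatory group was chosen like the others, with earlier results known. It had 7 of 16 members tested, and 4 of the 7 rose with IL-33, against 2.16% of all tested. Its median interaction was −0.17, against 0.02 over all miRNAs tested, with 2 positive and 5 negative and a range from −0.52 (miR-146b-5p) to 0.69 (miR-155-5p). Its median IL-33 difference was 0.95 in medium and 0.50 after Th2 growth. The members thus lay on both sides of 0, and no interaction among them passed the test.

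The 6 estimates past 2-fold were all negative and shared their extreme arrays. They were miR-376c-3p at −3.99 ± 1.70 (SE), miR-3063-3p at −3.06 ± 1.31 (SE), miR-378a-5p at −2.88 ± 1.32 (SE), miR-302c-3p at −2.01 ± 0.93 (SE), miR-30b-3p at −1.67 ± 1.11 (SE) and miR-669b-5p at −1.09 ± 0.80 (SE). The first 4 had unadjusted p between 0.0332 and 0.0477 and adjusted p of 0.995 in limma. For all 6, the 3 lowest of the 16 arrays were Media 1, Media 3 and Th2 + IL-33 2.

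miR-376c-3p, of the imprinted Dlk1-Dio3 region, was the most extreme. It stood at 0.0690, 5.35, 0.0353 and 1.80 on the Media arrays, 4.43, 5.05, 4.32 and 3.89 on Media + IL-33, 3.74, 4.87, 4.45 and 3.92 on Th2, and 5.28, 0.823, 3.94 and 4.69 on Th2 + IL-33. Media 2 was at the level of the other groups, Media 1 and Media 3 were far below it, and Th2 + IL-33 2 was below its group. Media 4, at 1.80, was also below every array of the other groups except Th2 + IL-33 2. All 4 probes gave interactions between −4.03 and −3.93.

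miR-3063-3p stood at 0.0353, 0.336, 0.0353 and 0.0877 on the Media arrays, 0.216, 0.740, 0.897 and 0.368 on Media + IL-33, 0.311, 0.403, 0.925 and 0.253 on Th2, and 0.637, 0.0353, 0.492 and 0.789 on Th2 + IL-33. Its Media 1, Media 3 and Th2 + IL-33 2 arrays were at the floor. miR-302c-3p, of a cluster known from embryonic stem cells, stood at 0.0353 on Media 1 and Media 3 and 0.0355 on Th2 + IL-33 2, and between 0.0739 and 0.390 on the other 13 arrays. The probes of miR-669b-5p disagreed, with interactions of −1.93 and 0.04.

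Without those 3 arrays the 6 interactions were −0.38, −0.88, −0.69, −0.44, −0.27 and −0.08 in the same order. Estimates over all miRNAs then ran from −0.88 to 0.86, 0 were past 2-fold, and 0 passed the adjusted threshold in limma, with 2 at an unadjusted p under 0.05. The 6 were bound to become less negative, as these arrays were the 3 lowest for each. What set these arrays apart was not tested.

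**Figure D5:**
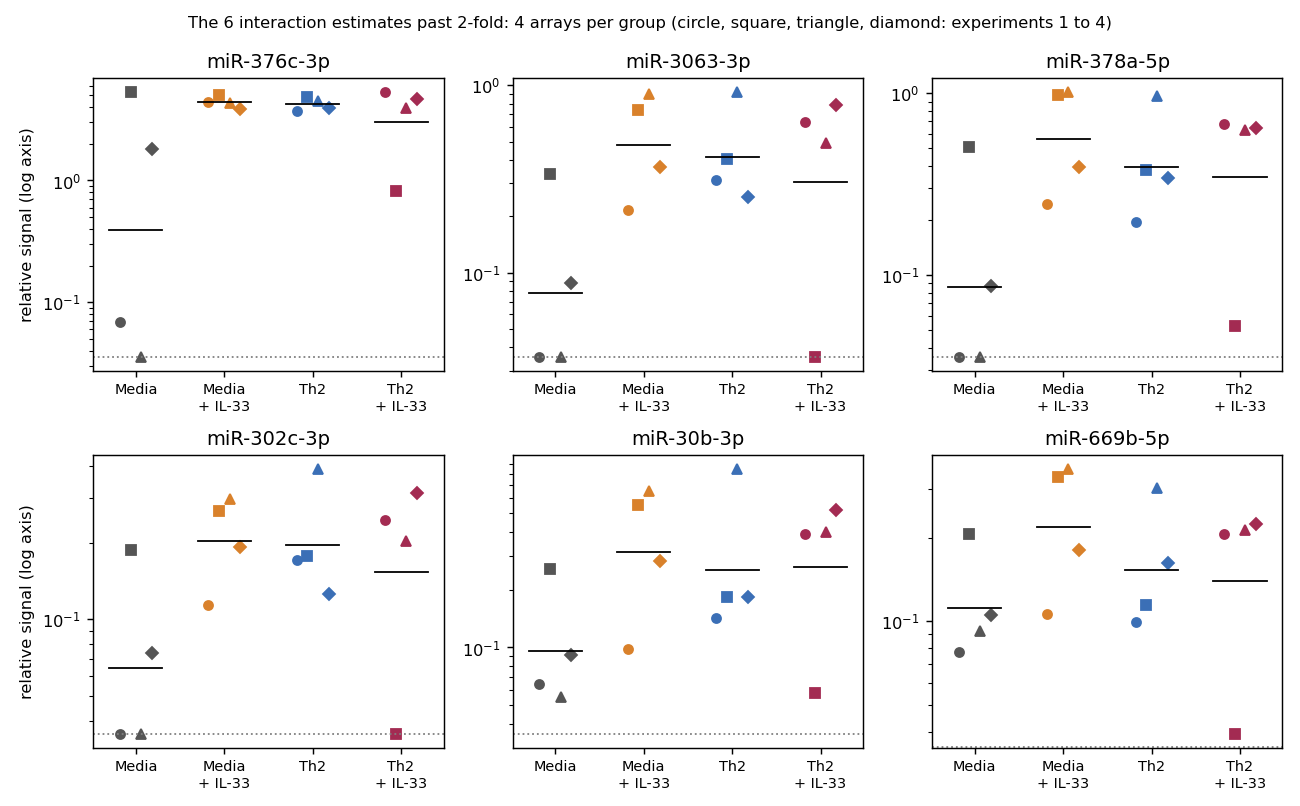
Relative signal (log axis) on each array of the 6 miRNAs with interaction estimates past 2-fold; circles, squares, triangles and diamonds are experiments 1 to 4, bars are geometric means of 4 arrays, and the dotted line is the floor of 0.0353. Media 1 and Media 3 (grey circle and triangle) and Th2 + IL-33 2 (red square) are the 3 lowest arrays in each panel.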

How the data were processed

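Total RNA of 16 cultures was labelled with Cy3 and run on Agilent mouse miRNA arrays, 1 sample per array. Per the file headers, Agilent Feature Extraction 10.7.3.1 gave the spot values; the deposited intensity is background-subtracted and not normalized between arrays. The authors' deposited intensity table of 3105 probes was made with Partek 6.6 and RMA, per the submitters' processing notes; its columns share a median of 0.428, it is on the linear scale, and it was used only as an alternative. Outlier spots (2040 to 3929 of 49880 per array) were left out, spots of a probe averaged, probes of a miRNA summed, and signals scaled to the 75th percentile of the 178 miRNAs found on every array. Signals under the 1st percentile of detected signals were set to that floor before log2. The number of arrays limits the precision.

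One mean per group was fitted over all 16 arrays with limma 3.58.1 in R 4.3.3 (lmFit, eBayes), with 12 residual degrees of freedom and Benjamini-Hochberg adjustment over 231 miRNAs. Every p in the text is from this model unless named otherwise. The labels tie each replicate number to 1 experiment, so numbers pair the arrays: the residual correlation had a median of 0.112 over 24 same-experiment pairs (−0.694 to 0.728) and −0.0482 over 72 other pairs. The experiment as a block, the slide, background correction, scaling, floor, filters, probe rule, array weights and left-out arrays were alternatives; median centring and a bound for dim arrays (their lowest signal passing the background flag) were added after seeing the data. The script was tested on simulated data. miRNAs named were the 10 smallest interaction p, every miRNA passing for IL-33, the 10 smallest p for Th2 growth, 9 chosen names and up to 4 members of each of 12 lists. The members and lists were chosen with earlier results of these data known. The sequence of miR-378a-5p is not reported here.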

Additional observations from a re-analysis of the deposited data

Results flagged for a closer look

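Groups of 4 arrays with at most 1 array at the floor were screened. In them, 13 values of the miRNAs named lay farther from the nearest other array than Dixon's 95% limit allows. Chance alone does so in about 1 of 20 groups. The miRNAs named include the 10 with the smallest interaction p. As 52 were named, with up to 4 groups each, some such values arise by chance alone. Values of different miRNAs on 1 array are not independent, and the total of 13 was not tested against chance. Th2 + IL-33 2 was the far array for 6 of them: miR-376c-3p at 0.823, miR-3063-3p at 0.0353, miR-378a-5p at 0.0528, miR-30b-3p at 0.0579 and miR-669b-5p at 0.0392 were the lowest of their group, and miR-362-3p at 0.229 the highest. The first 5 are among the 6 interaction estimates past 2-fold. The others were miR-30b-3p on Th2 3 at 0.852, miR-17-3p on Th2 4 at 0.164, miR-30b-5p on Media 4 at 0.247, miR-378d on Media 3 at 0.0654, miR-146a-5p on Media + IL-33 3 at 0.569, miR-29b-3p on Media + IL-33 1 at 0.499 and miR-378a-3p on Th2 + IL-33 3 at 0.250.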

How the results depend on the processing

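The interaction count was 0 in 33 of 34 settings, leaving out each replicate in turn included, and 1 with array weights (miR-155-5p). The number of intervals inside 2-fold (187) ranged from 182 to 188 over left-out replicates and was 47 with slide 2 only and 1155 of 1247 with no filter, where most miRNAs were at the floor. For the IL-33 average (5 calls), normexp background correction, quantile normalization, the authors' deposited table and slide 2 only each gave 3, only miRNAs detected on all arrays gave 2 and the brightest probe gave 8; left-out replicates gave 4 to 8, with 8 without Media 4. For the Th2 average (46 calls), no filter gave 25, array weights 98, slide with replicate block 71, slide 2 only 10, and left-out replicates 35 to 59. The replicate block alone gave 0 interaction calls, 7 for IL-33 and 63 for Th2 growth, with 45 higher and 18 lower against 37 and 9; 2 interactions had an unadjusted p under 0.05 against 5. Of 1752 values of the 52 named interactions, 29 moved by more than their standard error to the other sign, 1 gained a call and 0 that passed changed sign. As no interaction passed in the main fit, that 0 was almost fixed in advance. Smaller moves across 0 are not in the 29. The main fit's sign was kept in 33 of 33 settings for miR-155-5p and in 15 of 34 for miR-30b-5p. Signal over background limits miR-155-5p, miR-21a-3p and miR-146b-5p, which were well above background on 1, 2 and 2 of 4 Media arrays. On the Th2 arrays they were so on 0, 1 and 4 of 4. Causes of these shifts were not tested.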

Other observations

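The miRNAs miR-99b-5p, let-7e-5p and miR-125a-5p, processed from 1 cluster, were looked at after their values were seen. Their IL-33 differences were nearly equal in the 2 growth conditions: 0.51 in medium and 0.50 after Th2 growth for miR-125a-5p, 0.51 and 0.55 for miR-99b-5p, and 0.39 and 0.35 for let-7e-5p, on the log2 scale. None passed the IL-33 test averaged over growth conditions (limma, adjusted p = 0.0519, 0.166 and 0.354). Their interactions were −0.003 ± 0.26, 0.04 ± 0.32 and −0.04 ± 0.26 (SE), with intervals inside 2-fold. With the brightest probe in place of the sum of probes, miR-125a-5p and miR-99b-5p passed, as did miR-125a-3p.

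Over all 231 tested miRNAs the IL-33 difference had the same sign in both growth conditions for 143, of which 81 were positive and 62 negative.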
